A study of Mus musculus with 16 samples.

Results

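TGF-beta and activin genes were followed across tumors grown in the mouse peritoneum with and without IL-33. The 9 genes were a list given by symbol, and all 9 were found among the 22298 genes counted. They are the ligands Tgfb1, Tgfb2, Tgfb3 and Inhba, the latent complex protein Ltbp1, the receptors Tgfbr1 and Tgfbr2, the target Tgfbi and the inhibitor Smad7. MFC cells, a mouse forestomach carcinoma line labelled as wild type, had been injected into the peritoneal cavity of 615-line mice, the strain in which the line forms syngeneic tumors, at 500000 cells per mouse. Mice were 6 weeks old, and the methods name both sexes, matched within the study. The vehicle group (labelled control) received PBS and the IL-33 treatment group received IL-33 at 20 μg/kg by intraperitoneal injection every 2 days, so that cells, route and host were shared. The comparison asks how local IL-33 alters the tissue of peritoneal tumors, and poly(A)-selected RNA of 8 tumors from each group was sequenced. Only tumors with RNA of sufficient quality had been sequenced. The methods give 4 or 5 mice per group for this model, a survival experiment had 9, and the sources used here do not say whether any of the 8 tumors shared a mouse, so the number of independent animals is not known. P-values therefore measure the spread between these tumors. Counts summed to between 14139268 and 24290794 per vehicle tumor and 16569613 to 24288893 per IL-33 tumor. Levels are given as CPM, the count of a gene over the total count of its tumor, times 1000000.

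TGF-beta is secreted as a latent dimer that is tied to the matrix by a latent TGF-beta binding protein and is released by integrins, proteases or thrombospondin. Released TGF-beta binds the type II receptor, which recruits and phosphorylates the type I receptor, and activins, dimers of inhibin beta chains, use receptors of the same family. Both then act through Smad2, Smad3 and Smad4 on genes of the matrix and of growth control, Smad7 feeds back on the receptors, and in tumors the pathway is known for effects on fibroblasts, on invasion and on immune cells.

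One tumor of each group stood apart from the others, and the values below are given with this in view. IL-33 replicate 7 held the highest value of 5 of the 9 genes, and of 43% of the 16817 genes tested. All 7 genes of an ovary list had counts in it, summing to 608 CPM against at most 1.6 CPM in any of the other 15 tumors, where Foxl2, Fshr and Cyp19a1 were at 0. Its most abundant ovary gene was Cyp11a1, at 376 CPM. A uterus and oviduct list of 6 genes, led by Ovgp1, summed to 1218 CPM in that tumor and to at most 3.93 CPM elsewhere, with Wnt7a at 0 in the other 15. Smooth muscle genes (5, led by Myh11) summed to 3366 CPM against at most 362. Fibroblast genes (6, led by Col3a1) summed to 7061 CPM against at most 2769.9, and endothelial genes (5, led by Pecam1) to 676 CPM against at most 197. In bulk tissue, more cells of a type and more RNA per cell cannot be told apart.

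Control replicate 4 held the lowest value of 7 of the 9 genes, and of 47.3% of the 13607 tested genes in which 1 tumor alone was lowest. These ranks are of CPM. The edgeR fits also scale each tumor's total count by a TMM factor, which was 0.64 for this tumor, and ranks on that scale can differ. Relative to the median of the other tumors, its 1069 genes with under 2 kb of exon had a median log2 ratio of 0.72 and its 3343 genes with over 6 kb one of -1.37, over genes with a mean of at least 10 CPM. The difference between long and short genes was thus -2.09 on the log2 scale in this tumor. It was -0.85 in IL-33 replicate 3, -0.57 in control replicate 7 and between -0.24 and 0.30 in the other 13. Neutrophil genes (5, led by S100a9 and with Camp at 0) summed to 440.5 CPM in control replicate 4 against at most 118 in the other 15 tumors, and platelet genes (6, led by Pf4) to 119.7 CPM against at most 54.5. Of the platelet genes, Pf4 (92.1 CPM), Itga2b (15 CPM) and Gp1bb (10 CPM) were highest in control replicate 4, while Ppbp (2.40 CPM), Gp9 (0.212 CPM) and Gp6 (0) were not. The labels name gastric cancer cells, and the line is one of the forestomach. Stomach genes (8, led by Muc6) summed to between 1.17 and 5.36 CPM over the 16 tumors, with Gkn2 at 0 in every tumor. In the epithelial list of 9 genes Krt8 led and stood at 181 CPM or more in each tumor, and Krt19 lay between 44.5 and 690.2 CPM. By contrast, Epcam lay at or below 2.40 CPM and Cdh1 at or below 3.01 CPM outside IL-33 replicate 7. Krt5 and Krt14 lay at or below 1.33 and 1.26 CPM in all 16 tumors.

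No member differed between the groups at an adjusted p under 0.05 by edgeR, where 0 of the 16817 genes tested (0%) passed, and DESeq2 and limma also passed 0. At an unadjusted p under 0.05, edgeR placed 0 of the 9 genes higher in the IL-33 treatment group, beside 1680 of all genes (9.99%), and 0 lower, beside 196 (1.17%). Without IL-33 replicate 7 the counts were again 0 of 9 in each direction, beside 289 higher (1.83%) and 362 lower (2.29%) of 15803 genes, with 0 (0%) at an adjusted p under 0.05. The median log2 fold change of IL-33 over vehicle was 0.10 over the 9 genes and 0.06 over all genes, and without IL-33 replicate 7 it was 0.00 and -0.01. Adjusted p-values of the 9 genes lay between 0.5 and 0.979 by edgeR over all tumors, and between 0.964 and 0.997 without IL-33 replicate 7.

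**Figure D1:**
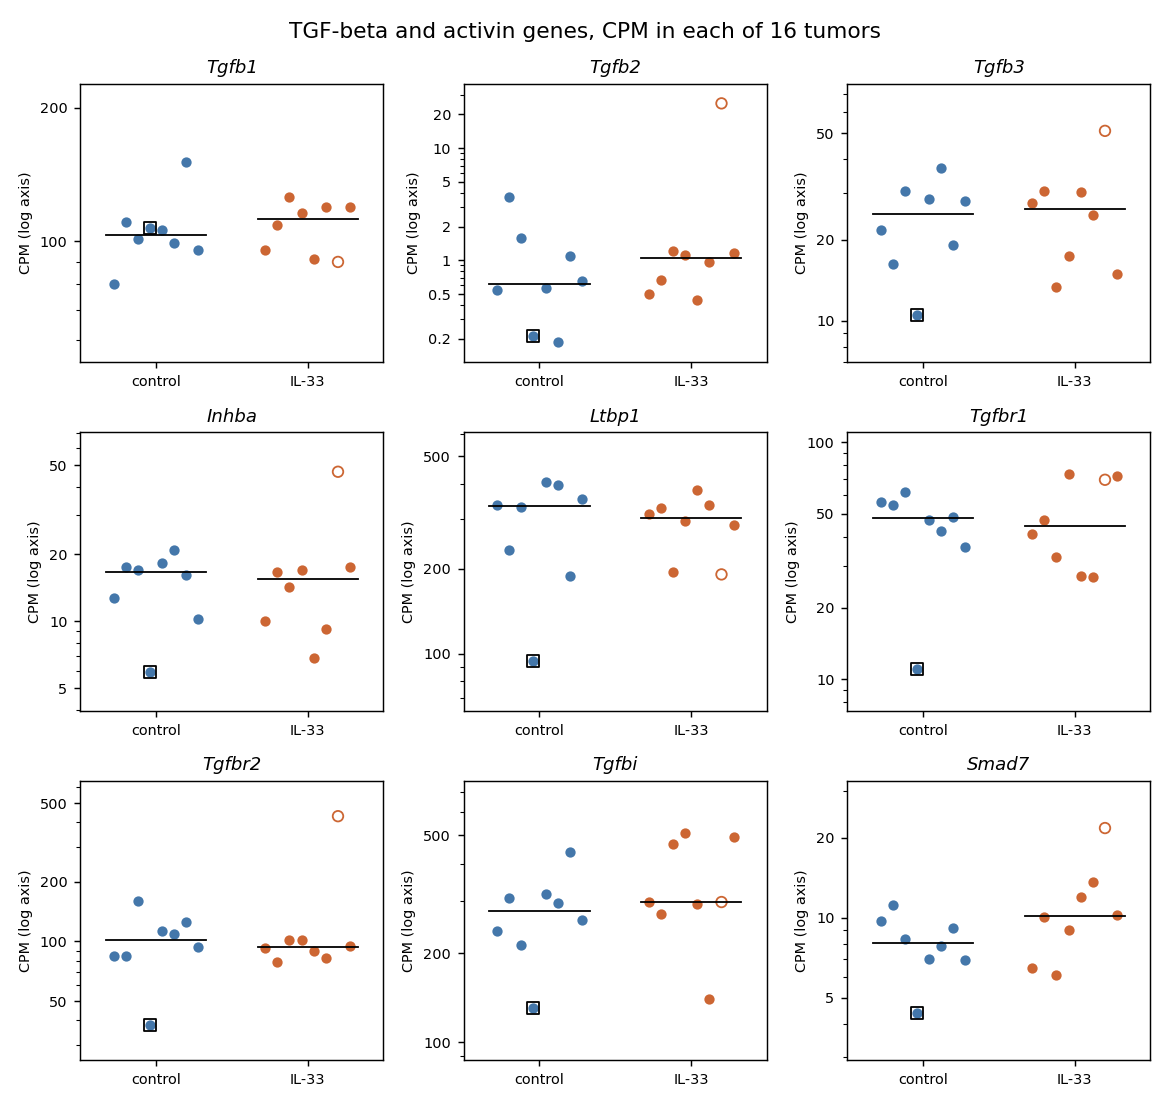
CPM (log axis, a different range in each panel) of each of the 9 genes in the 8 control (blue) and 8 IL-33 (orange) tumors, in replicate order from left to right. The black line is the group median, the open circle is IL-33 replicate 7 and the open square marks control replicate 4: the circle is the highest point for Tgfb2, Tgfb3, Inhba, Tgfbr2 and Smad7, and apart from these marked tumors the groups overlap in each panel.

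Among the ligands, Tgfb1, the form that immune cells and platelets make in quantity, was the most even across tumors. The gene (chromosome 7, 25687002 to 25705077, plus strand, GRCm38) had a lowest, median and highest value of 80.2, 103 and 151 CPM in the vehicle group, and of 89.9, 113 and 126 CPM in the IL-33 tumors. The tumors overlapped throughout, with the lowest value in control replicate 1, the highest in control replicate 7, and 5 of 8 IL-33 tumors above the vehicle mean. Means were 106 ± 20.4 and 108 ± 14.2 CPM (SD, n = 8 each). The log2 fold change was -0.07 with a 95% confidence interval of -0.41 to 0.26 (adjusted p = 0.926, edgeR), and 0.00 without IL-33 replicate 7 (-0.33 to 0.32). It was 0.03 without control replicate 4 and 0.10 (-0.16 to 0.36) without both of these tumors. The sign thus turned with the tumors included, and the CPM mean and median were higher in the IL-33 tumors. CPM is not scaled by TMM factors as the edgeR fits are, and the part of this in the sign was not tested. Control replicate 4, the tumor with the lowest CPM for 7 other genes of the list, was not low in Tgfb1, at 107 CPM. Its TMM factor of 0.64 raises its level in the edgeR fits. The 2 tumors with the highest CPM of Tgfb1, control replicate 7 and IL-33 replicate 3, were the 2 tumors after control replicate 4 with the fewest long transcripts. They also had the highest macrophage sums (6 genes, led by Lyz2), at 2322 and 2142 CPM. Their platelet sums, 54.2 and 54.5 CPM, were mostly Pf4 at 45.1 and 47.2 CPM, beside a vehicle median of 26.5. Ppbp was at 3.6 and 2.79 CPM (vehicle median 2.37) and Gp1bb at 0.8 and 0.437 CPM (0.338). Itga2b was at 4.46 and 4.04 CPM (4.41), Gp9 at 0.229 and 0 CPM (0.111) and Gp6 at 0 and 0.0546 CPM (0). The part of any of these in the level was not tested.

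Tgfb3, a ligand known from mesenchymal cells and palate development (chromosome 12, 86056745 to 86079041, minus strand), lay between 10.5 and 37.2 CPM in the vehicle group, with a median of 24.9, and between 13.3 and 51 CPM in the IL-33 tumors, with a median of 26.1. The ranges overlapped except for IL-33 replicate 7 at the top, and the lowest tumors were control replicate 4 and IL-33 replicate 3. Its log2 fold change was 0.05 (-0.49 to 0.59, adjusted p = 0.975 by edgeR), and -0.09 (-0.61 to 0.43) without IL-33 replicate 7. Without that tumor the means were 24 ± 8.62 CPM (SD, n = 8) and 22.7 ± 7.32 CPM (SD, n = 7).

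Tgfb2, a ligand with roles in heart and eye development (chromosome 1, 186622792 to 186705989, minus strand), was near the limit of counting in most tumors. Vehicle tumors ranged from 0.185 to 3.68 CPM with a median of 0.612, and IL-33 tumors from 0.439 to 25.1 CPM with a median of 1.04. IL-33 replicate 7 alone gave the top value and held 440 of the 557 counts of its group, or 79%, and the next highest tumor was control replicate 2, with 60 counts. The group means, 1.06 ± 1.15 CPM and 3.89 ± 8.56 CPM, were 0.863 ± 0.322 CPM in the IL-33 tumors without that tumor (SD, n = 7). For Tgfb2 the log2 fold change was 1.65 (-0.17 to 3.47, adjusted p = 0.5 by edgeR), and it turned to -0.29 (-1.38 to 0.81, adjusted p = 0.968) without IL-33 replicate 7. The two-sided exact permutation test on log2(CPM + 0.5) gave a difference of 0.55 over all 16 tumors with p = 0.474.

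Per kilobase of exon, the 3 TGF-beta ligands divided unevenly, and the difference in shares between groups was not tested. Tgfb1 made up 74.3% ± 8.19 of their summed level in the vehicle group (SD, n = 8) and 76.2% ± 7.50 in the IL-33 tumors other than replicate 7 (SD, n = 7). Tgfb3 made up 25.0% ± 8.37 and 23.2% ± 7.68, and Tgfb2 0.65% ± 0.723 and 0.514% ± 0.190. With IL-33 replicate 7 included (SD, n = 8), the IL-33 shares were 72.7% ± 12.2, 25.4% ± 9.37 and 1.90% ± 3.93 for Tgfb1, Tgfb3 and Tgfb2. In IL-33 replicate 7 the shares were 47.9% for Tgfb1, 40.5% for Tgfb3 and 11.6% for Tgfb2. The Tgfb1 share lay between 64.1% and 87.1% in the other 15 tumors, so that this tumor lay outside their range. Transcripts annotated on the opposite strand across 124 exon bases of Tgfb2, and across 257 and 163 of Tgfb3, were not counted as genes of their own, and strand was not stated, so their reads could not be separated.

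Inhba encodes the inhibin beta A chain, whose homodimer is activin A (chromosome 13, 16011851 to 16031621, plus strand). Vehicle tumors lay between 5.94 and 20.8 CPM with a median of 16.6, and IL-33 tumors between 6.86 and 46.8 CPM with a median of 15.4. IL-33 replicate 7 stood above every other tumor and the remaining 7 lay inside the vehicle range, where control replicate 4 was lowest. The log2 fold change was 0.10 (-0.52 to 0.71, adjusted p = 0.949 by edgeR) and -0.21 (-0.68 to 0.25) without IL-33 replicate 7, for means of 14.8 ± 4.86 CPM (SD, n = 8) and 13.1 ± 4.32 CPM (SD, n = 7).

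Other ligands came from a list of 56 further pathway genes, of which 53 had the 10 counts needed for a test. Inhbb, the beta B chain, had the highest level per kilobase of the 7 ligands in that list in the vehicle group, and also in the IL-33 tumors other than replicate 7. Its level was 8.56 ± 1.45 times that of Inhba in the vehicle group (SD, n = 8) and 8.67 ± 1.89 times in the IL-33 treatment group without replicate 7 (SD, n = 7). In CPM it lay between 33.7 and 132 in vehicle tumors and between 50.9 and 209 in IL-33 tumors, with the top value again in IL-33 replicate 7. Inha, the alpha chain that turns the beta chains into inhibin, was at 305 CPM in IL-33 replicate 7 and at most 0.515 CPM in the other 15 tumors. Its log2 fold change of 7.27 (SE 2.10, adjusted p = 0.418 by edgeR) rested on 1 tumor and was -1.56 without it. Gdf11, a relative of myostatin that signals through activin receptors, lay between 12.5 and 33 CPM in the vehicle group and between 11.7 and 26.1 CPM in the IL-33 tumors. Only 1 of 8 IL-33 tumors exceeded the vehicle mean, and the log2 fold change was -0.49 (SE 0.17, unadjusted p = 0.0108, adjusted p = 0.418 by edgeR). Without IL-33 replicate 7 it was -0.45 (unadjusted p = 0.0209, adjusted p = 0.964 by edgeR). Inhbc, Inhbe and Mstn had under 10 counts over all tumors and Nodal lay at or below 0.245 CPM.

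Ltbp1 encodes the latent TGF-beta binding protein that anchors the latent complex in the matrix (chromosome 17, 75005568 to 75392512, plus strand). It lay between 94.3 and 404 CPM (median 334) in the vehicle group and between 191 and 378 CPM (median 303) in the IL-33 tumors. The 4 lowest tumors came from both groups, namely control replicates 4 and 7 at 94.3 and 189 CPM and IL-33 replicates 7 and 3 at 191 and 194 CPM. Among them are the 3 tumors with the fewest long transcripts. Ltbp1 has 10691 bases of annotated exon, the most of the 9 genes, and the part of transcript length in these levels was not tested. Ltbp1 had a log2 fold change of -0.04 (-0.53 to 0.46, adjusted p = 0.979 by edgeR). It was 0.06 (-0.41 to 0.53) without IL-33 replicate 7 and -0.04 (-0.45 to 0.37) without control replicate 4 as well.

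**Figure D2:**
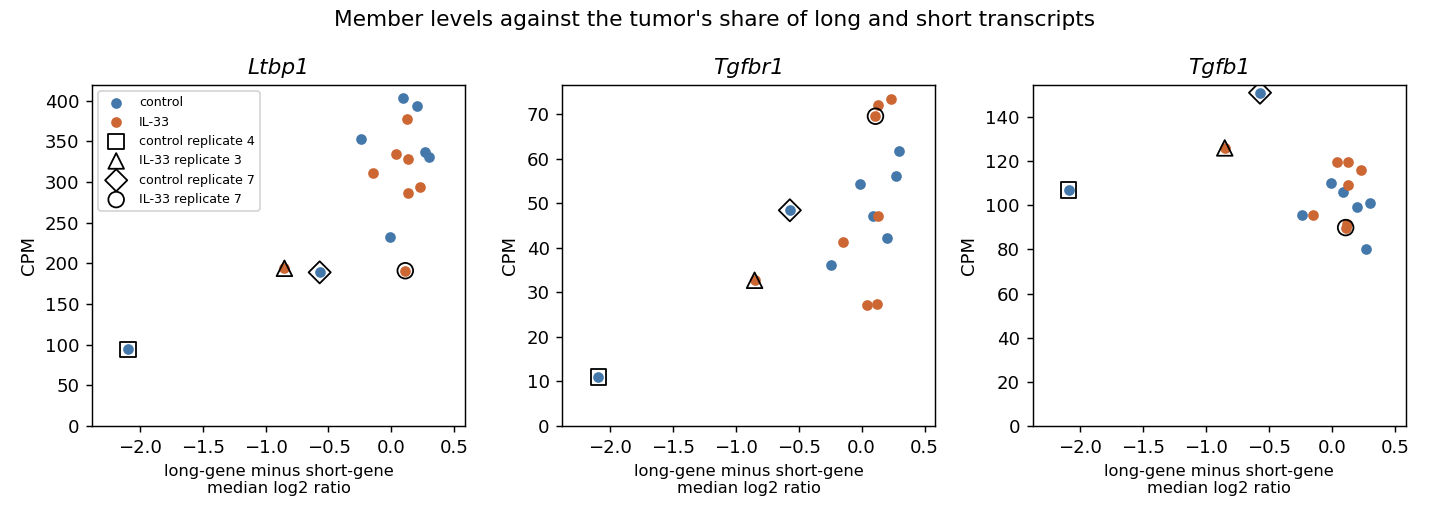
CPM of Ltbp1, Tgfbr1 and Tgfb1 (vertical axes, from 0) in each control (blue) and IL-33 (orange) tumor against the median log2 ratio of genes over 6 kb minus that of genes under 2 kb (horizontal axis), where each ratio is the tumor over the median of the other tumors. Control replicate 4 (square, -2.09) is the lowest tumor for Ltbp1 at 94.3 CPM and for Tgfbr1 at 11 CPM, but not for Tgfb1 at 107 CPM.

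Of the 12 further genes of latency and activation, 2 were higher and 1 lower at an unadjusted p under 0.05 over all tumors. This stood beside 9.99% and 1.17% of all genes. Without IL-33 replicate 7, 1 was higher and 2 lower, beside 1.83% and 2.29%. Thbs1 encodes thrombospondin, which can release active TGF-beta from the latent complex. Vehicle tumors lay between 37.8 and 146 CPM (median 97.5) and IL-33 tumors between 45.8 and 433 CPM (median 164). IL-33 replicate 7 was highest and control replicate 4 lowest, and the vehicle mean was exceeded by 7 of 8 IL-33 tumors. Thbs1 had a log2 fold change of 0.85 (SE 0.31, unadjusted p = 0.0127, adjusted p = 0.418 by edgeR), 0.62 (unadjusted p = 0.0379, adjusted p = 0.964 by edgeR) without IL-33 replicate 7, and 0.55 (unadjusted p = 0.0650 by edgeR) when control replicate 4 was left out as well. The exact permutation test gave p = 0.0634 for Thbs1, and 0 of the 53 tested pathway genes had p under 0.05 by it, beside 359 higher and 97 lower of all 16817 genes.

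Ltbp2, a matrix relative of Ltbp1 that does not bind latent TGF-beta, passed an unadjusted p of 0.05 by edgeR with and without IL-33 replicate 7, but not by the exact permutation test (difference -0.75, p = 0.227). It lay between 3.81 and 62.6 CPM in the vehicle group, with a median of 10.5, and between 3.51 and 21.2 CPM in the IL-33 tumors, with a median of 7.16. Control replicate 3 at 62.6 CPM and control replicate 7 at 48.7 CPM were the highest tumors, and 1 of 8 IL-33 tumors exceeded the vehicle mean. The log2 fold change was -1.33 (SE 0.55, unadjusted p = 0.0266, adjusted p = 0.418 by edgeR) and -1.57 without IL-33 replicate 7 (unadjusted p = 0.0126, adjusted p = 0.964). Control replicates 3 and 7 also had the highest fibroblast sums outside IL-33 replicate 7, 2769.9 and 2633 CPM. The median over the 15 tumors other than IL-33 replicate 7 was 716. Both sums were mostly Col3a1, at 2604 and 2459 CPM (vehicle median 694). Lum was at 22.2 and 52.1 CPM (7.56), Pi16 at 47.2 and 41 CPM (10) and Fap at 4.1 and 6.52 CPM (2.99). Pdgfra was at 80.7 and 46.7 CPM (64.5) and Dpt at 11.2 and 27.9 CPM (11.8), so each was below its median in 1 tumor. The part of fibroblasts in the Ltbp2 difference was not tested.

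Bmp1, a protease that cleaves Ltbp1 and procollagen, had a log2 fold change of -0.04 over all tumors and of -0.38 (unadjusted p = 0.0316, adjusted p = 0.964 by edgeR) without IL-33 replicate 7, which was at 263 CPM against at most 129.6 in the other 15. Itgb8, the beta chain of an integrin that activates latent TGF-beta, had a log2 fold change of 1.85 (unadjusted p = 0.0358, adjusted p = 0.420 by edgeR) that rested on IL-33 replicate 7, at 12.3 CPM against at most 1.46 elsewhere, and was 0.52 without that tumor. The most abundant of the 12 genes per kilobase was Ltbp4, another latent TGF-beta binding protein, at 97.9 to 504 CPM in the vehicle group and 134 to 1021 CPM in the IL-33 tumors. Per kilobase it was at 8.85 times that of Ltbp1 in IL-33 replicate 7 and between 0.932 and 2.36 times in the other 15 tumors.

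Tgfbr1 encodes the type I TGF-beta receptor, the kinase that phosphorylates Smad2 and Smad3 (chromosome 4, 47353222 to 47414931, plus strand). It lay between 11 and 61.6 CPM in the vehicle group, with a median of 47.8, and between 27.1 and 73.4 CPM in the IL-33 tumors, with a median of 44.1. IL-33 replicates 4, 7 and 8 were above every vehicle tumor, at 73.4, 69.5 and 72 CPM, while IL-33 replicates 5 and 6 and control replicate 4 were the lowest 3. The IL-33 tumors thus fell on both sides of the vehicle median, and the log2 fold change was 0.06 (-0.45 to 0.57, adjusted p = 0.965 by edgeR), 0.02 (-0.51 to 0.56) without IL-33 replicate 7 and -0.10 (-0.53 to 0.33) when control replicate 4 was left out as well. Means were 44.6 ± 15.8 CPM and 48.8 ± 20.1 CPM (SD, n = 8 each), and the vehicle SD was 8.71 CPM without control replicate 4 (n = 7).

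Tgfbr2 encodes the type II receptor that binds TGF-beta directly (chromosome 9, 116084293 to 116175360, minus strand). Vehicle tumors lay between 37.9 and 161 CPM with a median of 101, and IL-33 tumors between 79.1 and 429 CPM with a median of 93.6. IL-33 replicate 7 was the high tumor at 4.58 times the median of the other 15, control replicate 4 was the low tumor, and the remaining 7 IL-33 tumors lay close together between 79.1 and 102 CPM. Their mean was 91.7 ± 8.64 CPM (SD, n = 7) beside 101 ± 36 CPM in the vehicle group (SD, n = 8). For Tgfbr2 the log2 fold change was 0.27 (-0.36 to 0.91, adjusted p = 0.801 by edgeR). It was -0.15 (-0.50 to 0.19, adjusted p = 0.964) without IL-33 replicate 7, and -0.24 (-0.52 to 0.04) without control replicate 4 as well. Endothelial, fibroblast and smooth muscle markers were also highest in IL-33 replicate 7, and their part in its Tgfbr2 level was not tested.

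**Figure D3:**
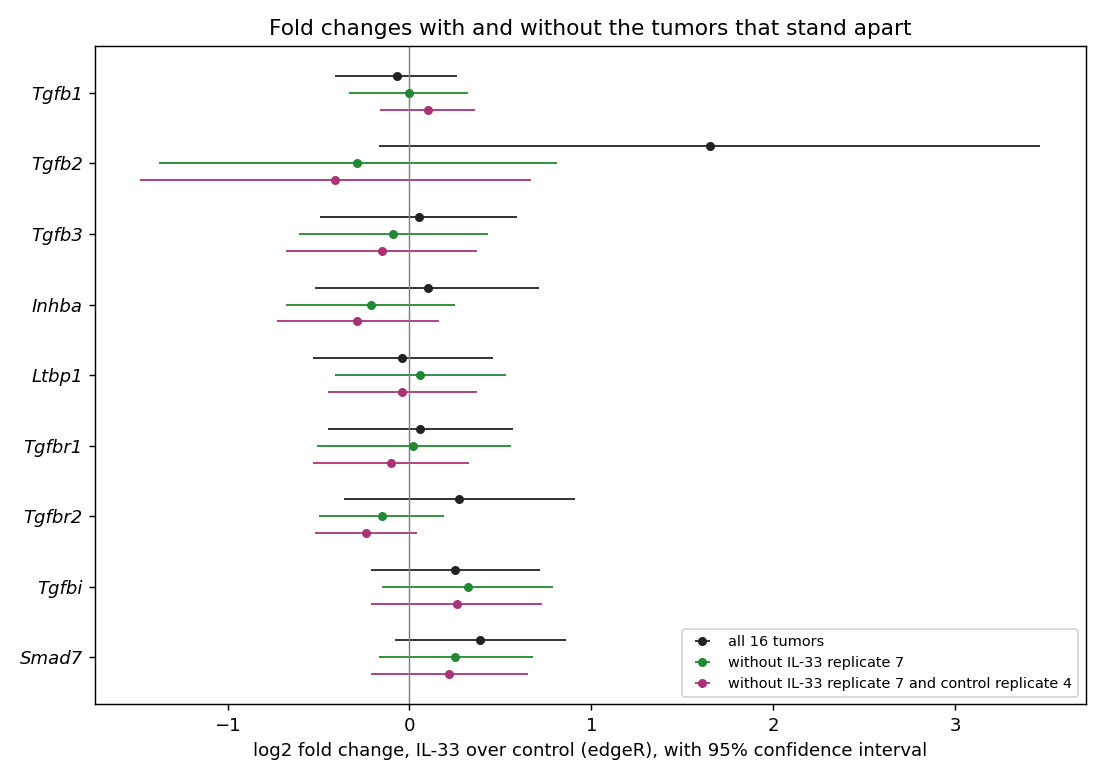
Log2 fold change of IL-33 over control for each of the 9 genes (points) with its 95% confidence interval (lines) from edgeR over all 16 tumors (black), without IL-33 replicate 7 (green) and without control replicate 4 as well (purple). Each interval includes 0, and the point for Tgfb2 moves from 1.65 to -0.29 and -0.41.

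In neither fit did any of 8 further receptors reach an unadjusted p under 0.05, beside 9.99% of all genes higher and 1.17% lower in the full fit, and 1.83% and 2.29% when IL-33 replicate 7 was left out. With so few genes, 0 does not set the receptors apart from all genes. Tgfbr3, betaglycan, a co-receptor that presents TGF-beta to the type II receptor, was the most abundant of them per kilobase and lay between 45.4 and 245 CPM in the vehicle group and between 89.5 and 233 CPM in the IL-33 tumors. Its 3 lowest tumors, control replicate 4, IL-33 replicate 3 and control replicate 7, were the tumors with the fewest long transcripts. The endothelial receptors Eng and Acvrl1 reached 278 and 114 CPM in IL-33 replicate 7, against at most 57.5 and 30.2 CPM elsewhere. The activin receptors Acvr1b and Acvr2a were at log2 fold changes of 0.33 and 0.18 with every tumor included, of 0.13 and 0.10 without IL-33 replicate 7, and of 0.02 and 0.01 without control replicate 4 as well.

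The 4 signal carriers listed were all lowest in control replicate 4. Smad4, the shared partner of the receptor-regulated Smads, had the highest level per kilobase of them, and in neither fit did any of the 4 reach an unadjusted p under 0.05, at the same shares of all genes as for the receptors. Smad4 was at 18.7 CPM in control replicate 4, and IL-33 tumors lay between 54.5 and 77 CPM. Its log2 fold change was 0.04 (SE 0.17, adjusted p = 0.963 by edgeR). That value was 0.07 without IL-33 replicate 7 and turned to -0.04 without control replicate 4 as well. Smad3 was above the vehicle mean in 7 of 8 IL-33 tumors, with a log2 fold change of 0.22 (SE 0.16, adjusted p = 0.676 by edgeR). That mean was 70.8 CPM, and 76.3 CPM without control replicate 4, while IL-33 replicate 1 was at 70.8 CPM. The Smad3 log2 fold change was 0.23 without IL-33 replicate 7 and 0.18 without control replicate 4 as well.

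Tgfbi, a secreted matrix protein named for its induction by TGF-beta and made by macrophages and mesenchymal cells (chromosome 13, 56609523 to 56639562, plus strand), was the most abundant of the 9 genes per kilobase. Vehicle tumors lay between 131 and 439 CPM with a median of 278, and IL-33 tumors between 140.2 and 508 CPM with a median of 297. IL-33 replicates 3, 4 and 8 were above every vehicle tumor, at 469, 508 and 496 CPM, control replicate 7 followed at 439 CPM, and control replicate 4 and IL-33 replicate 6 were the lowest 2. Means were 276 ± 89.9 CPM and 347 ± 131 CPM (SD, n = 8 each), with 6 of 8 IL-33 tumors above the vehicle mean. Tgfbi had a log2 fold change of 0.25 (-0.21 to 0.72, adjusted p = 0.727 by edgeR), and one of 0.32 (-0.15 to 0.79, adjusted p = 0.964) without IL-33 replicate 7, which was at 298 CPM.

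The 6 macrophage genes, led by Lyz2, summed to 2322, 2142, 1427 and 1217 CPM in control replicate 7 and IL-33 replicates 3, 4 and 8, the 4 tumors with the highest Tgfbi, and to 1878 CPM, the third highest sum, in IL-33 replicate 7. They summed to 409 CPM, the lowest sum, in IL-33 replicate 6, but to 1094 CPM in control replicate 4, the tumor with the lowest Tgfbi. The list was divided in control replicate 4, where Adgre1 and Csf1r were the lowest of all tumors, at 9.48 and 53.8 CPM. Cd68 and Lyz2, at 50.3 and 339 CPM, were below their vehicle medians of 57.2 and 351. C1qa and C1qb, at 329 and 313 CPM, were above theirs of 208 and 209. Over each group the sums ranged from 731 to 2322 CPM (median 1012) and from 409 to 2142 CPM (median 1093). Regulatory T cell genes (4, led by Ikzf2) had their highest sums in the 4 tumors with the highest Tgfbi, at 18, 13.1, 17.2 and 13.9 CPM in the order above. Their lowest sum was 1.34 CPM, in control replicate 4. None of the 4 genes alone had these tumors as its highest 4, and Foxp3 was at most 1.77 CPM in any tumor. In control replicate 4, Ikzf2 (0.495 CPM) and Il2ra (0.212 CPM) were the lowest of all tumors, while Foxp3 (0.283 CPM) and Ctla4 (0.354 CPM) were not. The part of either cell type in the Tgfbi levels was not tested.

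Of 12 further genes known to respond to TGF-beta, 7 had a log2 fold change above 0 and 5 below over all tumors, beside 9805 and 7012 of all genes, and 3 above and 9 below without IL-33 replicate 7, beside 7574 and 8229. At an unadjusted p under 0.05, 2 were higher and 0 lower over all tumors, beside 9.99% and 1.17% of all genes, and 0 higher and 1 lower without that tumor, beside 1.83% and 2.29%. The 2 were the contractile genes Tagln, with a log2 fold change of 2.95 (adjusted p = 0.418 by edgeR), and Acta2, with one of 2.60 (adjusted p = 0.418). They were at 1103 and 1887 CPM in IL-33 replicate 7 and at most at 36.3 and 91.8 CPM in the other 15 tumors, and without it the log2 fold changes were -1.04 and -0.56.

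Lox, which crosslinks collagen, lay between 20.9 and 404 CPM in the vehicle group and between 15.3 and 115 CPM in the IL-33 tumors. Control replicate 3 at 404 CPM and control replicate 7 at 139 CPM were the highest 2 tumors. They also had the highest fibroblast sums outside IL-33 replicate 7, 2769.9 and 2633 CPM, beside a median of 716 without that tumor. Both sums were mostly Col3a1, at 2604 and 2459 CPM. Pdgfra in control replicate 7 and Dpt in control replicate 3 were below their vehicle medians. The part of fibroblasts in the Lox difference was not tested. The log2 fold change was -1.16 (unadjusted p = 0.0591, adjusted p = 0.470 by edgeR) and -1.41 (unadjusted p = 0.0291, adjusted p = 0.964 by edgeR) without IL-33 replicate 7. Fibronectin, Fn1, had the highest level per kilobase of all pathway genes listed, at 786 to 6127 CPM in the vehicle group and 1074 to 4962 CPM in the IL-33 tumors, with a log2 fold change of -0.15 (SE 0.47, adjusted p = 0.950 by edgeR) that was -0.02 without IL-33 replicate 7.

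**Figure D4:**
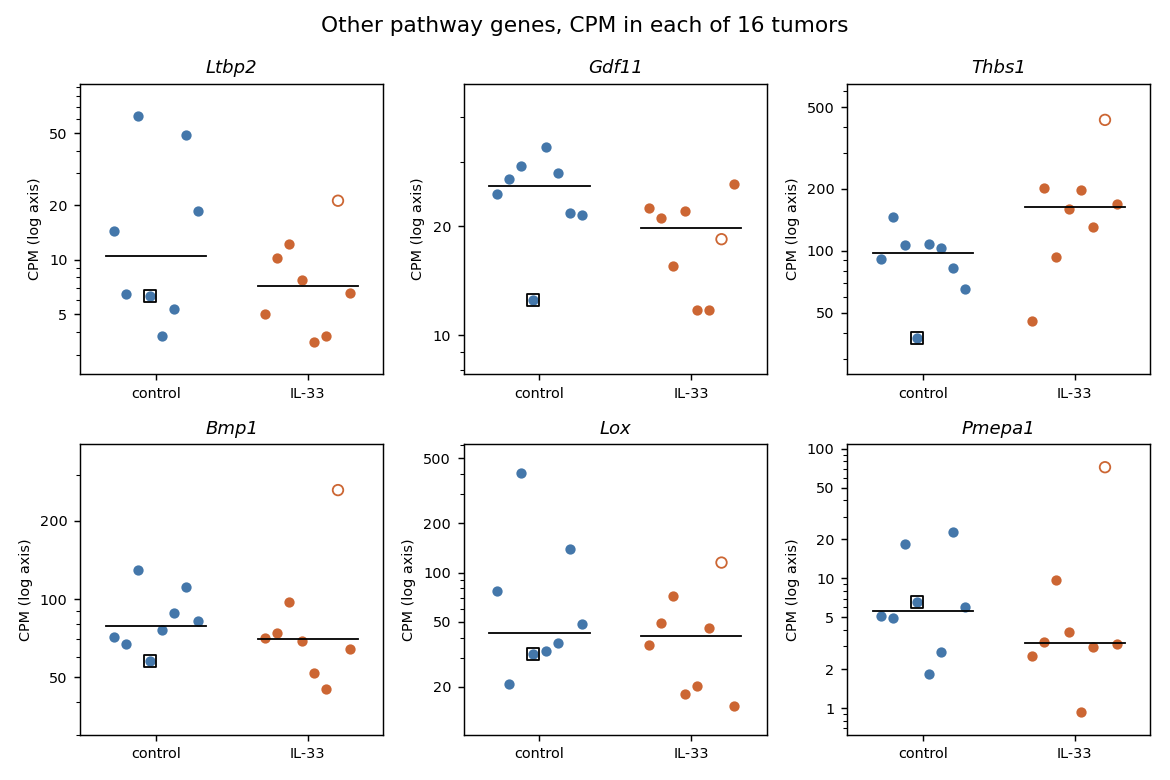
CPM (log axis, a different range in each panel) of 6 of the 10 further pathway genes with an unadjusted p under 0.05 over all tumors or without IL-33 replicate 7, drawn as for the 9 genes, with the open circle for IL-33 replicate 7, the open square for control replicate 4 and the black line for the group median. The groups overlap in every panel, and the high Ltbp2 and Lox values of the control group belong to replicates 3 and 7, at 62.6 and 48.7 CPM and at 404 and 139 CPM.

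Smad7 encodes the inhibitory Smad that TGF-beta induces and that blocks its type I receptor. Vehicle tumors lay between 4.38 and 11.2 CPM with a median of 8.07, and IL-33 tumors between 6.12 and 21.8 CPM with a median of 10.2. IL-33 replicates 5, 6 and 7 were above every vehicle tumor, at 12, 13.6 and 21.8 CPM, while IL-33 replicates 1 and 3 were below the vehicle median and control replicate 4 was lowest. Means were 8.07 ± 2.06 CPM and 11.2 ± 4.99 CPM (SD, n = 8 each). Smad7 had a log2 fold change of 0.39 (-0.08 to 0.86, adjusted p = 0.557 by edgeR). It was 0.25 (-0.17 to 0.68, adjusted p = 0.964) without IL-33 replicate 7, and 0.22 (-0.21 to 0.65) without control replicate 4 as well. The exact permutation test gave p = 0.132 for Smad7.

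Among 13 further inhibitors, 0 had an unadjusted p under 0.05 over all tumors, beside 9.99% of all genes higher and 1.17% lower. Without IL-33 replicate 7, 0 were higher and 1 lower, beside 1.83% and 2.29%. That gene was Pmepa1, which binds and retains receptor-regulated Smads, at 1.84 to 23 CPM in the vehicle group and 0.933 to 72.1 CPM in the IL-33 tumors. IL-33 replicate 7 was highest and control replicates 3 and 7 followed at 18.6 and 23 CPM, so that the log2 fold change was 0.26 over all tumors and -1.23 (SE 0.53, unadjusted p = 0.0350, adjusted p = 0.964 by edgeR) without it. Dcn, decorin, a proteoglycan that binds TGF-beta, had the highest level per kilobase of these inhibitors in the vehicle group, though not in the IL-33 tumors other than replicate 7, where Smurf1 was at 24.2 and Dcn at 23.2 CPM per kilobase. Dcn was at 45.8 to 247 CPM in the vehicle group and 92.6 to 179 CPM in the IL-33 tumors other than replicate 7, which was at 1550 CPM. Follistatin, Fst, which neutralizes activin, was 6.40 ± 1.84 times as abundant as Inhba per kilobase in the vehicle group (SD, n = 8) and 6.75 ± 1.32 times in the IL-33 treatment group without replicate 7 (SD, n = 7), and 1.03 times in IL-33 replicate 7.

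Per kilobase of annotated exon, the order of the 9 genes in the vehicle group was Tgfbi (73.1 ± 23.8 CPM per kilobase), Ltbp1 (27.3 ± 10.2), Tgfb1 (21.1 ± 4.04), Tgfbr2 (12.4 ± 4.39), Tgfb3 (7.10 ± 2.55), Tgfbr1 (6.83 ± 2.42), Inhba (2.32 ± 0.761), Smad7 (1.78 ± 0.455) and Tgfb2 (0.184 ± 0.199; SD, n = 8 each). Ltbp1 and Tgfb1, Tgfbr2 and Tgfb3, Tgfb3 and Tgfbr1, and Inhba and Smad7 were neighbours whose means were closer than the sum of their SDs. Tgfbr2 was nevertheless above Tgfb3 in 16 of 16 tumors, whereas Tgfb3 was above Tgfbr1 in 9 of 16. Which isoforms were present was not measured, so a gene with a long annotated exon union may be understated.

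The genes whose log2 CPM followed each member most closely were sought among 13109 tested genes with a mean of at least 1 CPM, as a description with no test; the tumors that stood apart enter each value. Ltbp1 was closest to Glg1, Vcan and Rptor (Pearson r = 0.97, 0.96 and 0.96; Spearman rho = 0.90, 0.91 and 0.91 over 16 tumors), with r of 0.97, 0.95 and 0.95 over 15 tumors without IL-33 replicate 7. Tgfbr1 was closest to Zfp280b, Zfp24 and Mex3c (r = 0.96, 0.95 and 0.94; rho = 0.91, 0.91 and 0.96), with the same r without that tumor. Tgfbi was closest to Slamf7, Zup1 and Lcp1 (r = 0.94, 0.94 and 0.93; rho = 0.91, 0.89 and 0.84), at 0.94, 0.95 and 0.93 without it; Slamf7 and Lcp1 are leukocyte genes. Tgfb3 was closest to Tbc1d9b, Lrrc56 and Mcf2l (r = 0.94, 0.93 and 0.93; rho = 0.92, 0.89 and 0.90), at 0.94, 0.92 and 0.93 without it.

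For Tgfb2, Tgfbr2, Inhba and Tgfb1, r was lower without IL-33 replicate 7 for each of the 3 closest genes. For Smad7 it was lower with Net1 and Arhgef3. Tgfb2 was closest to Hs3st1, Ror2 and Adamts10 (r = 0.96, 0.92 and 0.92; rho = 0.88, 0.91 and 0.81), with r of 0.88, 0.75 and 0.76 without it. Tgfbr2 was closest to Pdzd4, Gng7 and Adcy3 (r = 0.96, 0.96 and 0.96; rho = 0.89, 0.84 and 0.81), with 0.87, 0.87 and 0.92 without it. Inhba was closest to Osmr, the receptor chain for oncostatin M, Snapc3 and Fam161b (r = 0.91, 0.89 and 0.89; rho = 0.85, 0.67 and 0.81), with 0.84, 0.80 and 0.80 without it. Smad7 was closest to Tle3, Net1 and Arhgef3 (r = 0.91, 0.87 and 0.87; rho = 0.91, 0.78 and 0.78), with 0.91, 0.80 and 0.81 without it, and Tgfb1 to Manf, Vdac2 and Med21 (r = 0.90, 0.90 and 0.88; rho = 0.78, 0.86 and 0.92), with 0.87, 0.89 and 0.84 without it. Among the 9 genes themselves, the highest r over 16 tumors was 0.73 (rho = 0.32), for Tgfb2 and Tgfbr2, which fell to 0.17 over 15. Over 15 tumors the highest was 0.80, for Tgfb3 and Ltbp1 (0.46 over 16, rho = 0.52), and the lowest -0.66, for Tgfb1 and Ltbp1 (-0.30 over 16, rho = -0.28). Inhba and Tgfbr1 had r = 0.63 (rho = 0.64) over 16 and 0.68 over 15.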

How the data were processed

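RNA-seq of 16 tumors was used, grouped by their labels. The authors deposited raw read counts per gene, 1 table for each tumor. HISAT2, featureCounts and mm10 are named in the submitters' processing notes, without versions, and the annotation, the use of strand and any filter are not given in the sources used here. Symbols and exon lengths came from GENCODE M21 (GRCm38), which named 22255 of 22298 genes; the 43 without a symbol held 0.00434% of counts and stayed in the totals.

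Genes were tested where the 16 tumors together had 10 counts or more, which left 16817, with edgeR 4.0.16 (R 4.3.3), using TMM normalization and the quasi-likelihood test, with p-values adjusted by Benjamini-Hochberg over all of them. TMM factors were 0.64 for control replicate 4, 1.24 for IL-33 replicate 7 and 0.895 to 1.10 for the others. SEs and 95% intervals were derived from the F statistic. Exact permutation tests of log2(CPM + 0.5) ran over all 12870 assignments of the tumors, with a smallest possible p of 0.0002. Depth was 14139268 to 24290794 counts per tumor, so counting error matters for genes of a few reads. No pair of tumors agreed within sampling noise (chi-square per degree of freedom at least 7.69).

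The models were tested on simulated data. DESeq2 1.42.0 and limma 3.58.1 with sample quality weights, other normalizations and filters, the replicate block and each tumor left out were the alternatives. The members and lists were chosen with earlier results of these data known. Genes named are the 9 members, pathway genes with an unadjusted p under 0.05 over all tumors or without IL-33 replicate 7, the pathway gene of highest level per kilobase in each role, and the 3 genes most like each member. Other pathway and marker genes were named after their values were seen, and 1 planned pathway gene is not reported here. The 12 marker lists covered fibroblast, macrophage, platelet, regulatory T cell, neutrophil, endothelium, smooth muscle, mesothelium, uterus and oviduct, ovary, epithelium and stomach.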

Additional observations from a re-analysis of the deposited data

Results flagged for a closer look

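In each group of 8 tumors, the 9 genes and the 10 further pathway genes named for their unadjusted p were searched for a highest or lowest tumor whose gap to the nearest other tumor was large beside the range of the group. Of 38 such groups of values, 14 held one. Chance gives about 1 in 20 for unselected and independent groups, which these are not: the 10 further genes were chosen for p-values that IL-33 replicate 7 moves, and all groups share the same tumors. The tumor was IL-33 replicate 7 in 11 of the 14.

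IL-33 replicate 7 was set apart in this way from the other 7 IL-33 tumors for 4 of the 9 genes, at 25.1 CPM for Tgfb2, 51 CPM for Tgfb3, 46.8 CPM for Inhba and 429 CPM for Tgfbr2. The measure was not run over all genes, so the 4 are not shown to be particular to this list. Of the 16817 genes tested, 43% had their highest value in that tumor. For the further pathway genes that tumor was at 305 CPM for Inha, 12.3 CPM for Itgb8, 433 CPM for Thbs1, 263 CPM for Bmp1, 72.1 CPM for Pmepa1, 1103 CPM for Tagln and 1887 CPM for Acta2. The ovary, uterus and oviduct, smooth muscle, fibroblast and endothelial marker sums were highest in the same tumor, and their part in these values was not tested.

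In the vehicle group the values set apart were 151 CPM of Tgfb1 in control replicate 7, 3.68 CPM of Tgfb2 in control replicate 2, and 404 CPM of Lox in control replicate 3. Control replicate 3 also had the highest fibroblast marker sum of its group, at 2769.9 CPM, of which Col3a1 was 2604 CPM. Control replicate 4, the lowest tumor by CPM for 7 of the 9 genes, was not set apart from its group for any of them by this measure.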

How the results depend on the processing

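No member and no further pathway gene reached an adjusted p under 0.05 in any of the 26 alternatives, and over all genes 0 did so, except 1, Alas2, a heme synthesis gene of red cell precursors (log2 fold change -3.45, adjusted p = 0.0126), by DESeq2 without IL-33 replicate 7. At an unadjusted p under 0.05 the genes higher and lower numbered 1680 and 196 by edgeR, 424 and 267 by DESeq2, 499 and 143 with edgeR's filterByExpr, 539 and 479 by limma, 359 and 97 by the exact permutation test, 289 and 362 by edgeR without IL-33 replicate 7, and 330 and 329 without control replicate 4 as well.

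Only Tgfbi and Smad7 kept a positive log2 fold change in each alternative, at 0.17 to 0.36 and 0.25 to 0.47 with 1 tumor left out in turn. In the same fits Tgfb1 ranged from -0.13 to 0.03, Tgfb2 from -0.29 to 2.24, Tgfb3 from -0.09 to 0.17, Inhba from -0.21 to 0.20, Ltbp1 from -0.14 to 0.06, Tgfbr1 from -0.07 to 0.14 and Tgfbr2 from -0.15 to 0.40. The lowest unadjusted p among them by edgeR was 0.0228 for Tgfb2 without control replicate 2 and 0.0393 for Smad7 without IL-33 replicate 3.

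Signs also turned as follows, and the cause was not tested beyond the tumors left out. Without IL-33 replicate 7 and control replicate 4 together the log2 fold change was 0.10 for Tgfb1, -0.41 for Tgfb2, -0.15 for Tgfb3, -0.29 for Inhba, -0.10 for Tgfbr1 and -0.24 for Tgfbr2. By limma it was 0.09 for Tgfb1, -0.17 for Tgfb3, -0.32 for Inhba, -0.09 for Tgfbr1 and -0.24 for Tgfbr2, while Tgfb2 fell from 1.65 to 0.09 and Smad7 from 0.39 to 0.19. DESeq2 was run with its defaults, which replace counts flagged as outliers in groups of this size. It gave -0.31 for Tgfb2 over all tumors, where a replacement of the count of IL-33 replicate 7 was not recorded. Without IL-33 replicate 7 it gave -0.30 for Tgfb2, -0.09 for Tgfb3, -0.22 for Inhba, 0.05 for Ltbp1 and -0.16 for Tgfbr2. Group differences of log2(CPM + 0.5), and with a pseudocount of 1, were 0.04 for Tgfb1 and 0.08 for Ltbp1, on CPM not scaled by TMM factors.

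With the replicate number as a block, 0 genes had an adjusted p under 0.05, and 246 were higher and 72 lower at an unadjusted p under 0.05. In that fit Inhba turned to -0.02, Tgfb2 fell to 0.65 and Tgfbr2 to 0.13. Same-numbered tumors correlated in their deviations from the group means between -0.32 and 0.35, above 0.1 in 4 of 8 pairs, and 1 of 8 vehicle tumors correlated best with its own number, so the numbers were not taken as pairs.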

Other observations

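The mesothelial list was divided in IL-33 replicate 7. Its 5 genes summed to between 452 and 792 CPM in the vehicle group and between 318 and 1251 CPM in the IL-33 treatment group, and Msln, the most abundant, was at 92.5 CPM in IL-33 replicate 7 and at 448 CPM or more in each vehicle tumor. The other 4 of the list, Upk3b, Upk1b, Lrrn4 and Wt1, were in contrast highest in IL-33 replicate 7, at 59.8, 9.06, 17.8 and 139 CPM. IL-33 replicate 6 had the highest Msln, at 1243 CPM, as well as a Smad7 value above each vehicle tumor. Its macrophage sum, 409 CPM, and its Tgfbi, 140.2 CPM, were the lowest of its group.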
